A study of Mus musculus with 3 samples.

Results

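Wnt ligands, Frizzled receptors and the main regulators of the pathway were examined in cultured mouse hippocampal neurons. The genes were taken by name: all rows named Wnt, Fzd, Dkk, Sfrp or Dvl with a number, Axin1 and Axin2, and Lrp5, Lrp6, Ctnnb1, Apc, Frzb and Wif1. This gave 48 of the 47593 gene rows, namely 19 Wnt ligands, 10 Frizzled receptors, 2 coreceptors, 4 Dickkopf genes, 6 secreted Frizzled-related genes with Wif1 among them, 3 Dishevelled genes, and the 4 genes Axin1, Axin2, Ctnnb1 and Apc. The study sequenced RNA of wild-type (WT) primary neurons from hippocampus in 3 libraries of 1 group, cells given fresh medium with B27 supplement and penicillin-streptomycin for 24 h. Culture was in Neurobasal medium (10% B27, 1% GlutaMAX) at 37 °C under 5% CO2. Libraries of the apoE particle arm that the design names were not analysed here. Each value below is thus a level, with its spread, in bulk RNA of untreated cultures labelled as neurons. Whether the 3 came from separate cultures is not stated by the labels, and the age of the animals was not given in the sources used here.

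Wnt proteins are secreted, lipid-modified signals that bind Frizzled receptors on the cell surface. In the canonical branch, a Wnt bridges Frizzled and the coreceptor Lrp5 or Lrp6, Dishevelled is recruited, and a destruction complex of Axin, Apc and kinases stops marking beta-catenin (Ctnnb1) for degradation, so that beta-catenin enters the nucleus and acts with TCF and LEF factors. Other branches act without beta-catenin on cell polarity and calcium. In hippocampus the pathway is known for its part in progenitor growth, in dendrite and axon growth and in synapse formation.

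The deposited values are log2 expression values in which differences between libraries of weakly read genes are pulled together, and whole reads were recovered from them. They totalled 18780572 in replicate 1, 18683966 in replicate 2 and 18885652 in replicate 3. Levels are given as CPM (reads per 1000000), as mean ± SD over the 3 libraries, and a gene was called detected at 1 CPM or more in each library. Zero reads allow a level of up to 0.160 CPM in that library, the value of 3 reads, a bound that covers counting error only. As a check of the label, all 12 pan-neuronal markers were detected, with 0.812% ± 0.00279 of the reads and a summed level of 8094 to 8150 CPM. Astrocyte markers (9 of 10 detected, 1938 to 1958 CPM) and neural progenitor markers (9 of 9, 1062 to 1106 CPM) were present too, and so were 5 of 6 oligodendrocyte precursor, 4 of 8 oligodendrocyte, 5 of 8 mural cell and fibroblast and 4 of 6 Cajal-Retzius cell markers. Microglial, endothelial and choroid plexus markers summed to 4.21 to 6.57, 5.14 to 5.43 and 6.34 to 7.49 CPM, with 1 of 9, 1 of 6 and 2 of 7 detected, and Cldn5, Kcnj8 and Opalin had no reads. The part of the non-neuronal cells in the levels below was not tested, and in bulk RNA fewer cells of a type and less RNA per cell cannot be told apart.

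Promoters are shown first for 4 genes with levels from no reads to 35.7 CPM. More strongly read genes such as Ctnnb1 are not among them. Wnt7a is a strongly read ligand. Wnt9a and Wnt3a are neighbouring ligand genes, of which Wnt9a was detected and Wnt3a had no reads. Axin2 is a feedback inhibitor that beta-catenin is known to switch on. Each sequence is the 250 bases before the start of the gene, read along the strand of the gene, from RefSeq (GRCm38.p6). Capitals mark GC boxes, the letters GGGCGG or, on the other strand, CCGCCC.
Wnt7a, chr6:91411354-91411603, minus strand: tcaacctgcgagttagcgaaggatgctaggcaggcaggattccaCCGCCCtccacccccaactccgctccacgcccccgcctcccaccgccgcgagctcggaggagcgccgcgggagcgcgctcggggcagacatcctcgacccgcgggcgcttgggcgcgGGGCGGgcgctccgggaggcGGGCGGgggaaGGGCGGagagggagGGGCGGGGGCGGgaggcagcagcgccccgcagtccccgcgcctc
Wnt9a, chr11:59306680-59306929, plus strand: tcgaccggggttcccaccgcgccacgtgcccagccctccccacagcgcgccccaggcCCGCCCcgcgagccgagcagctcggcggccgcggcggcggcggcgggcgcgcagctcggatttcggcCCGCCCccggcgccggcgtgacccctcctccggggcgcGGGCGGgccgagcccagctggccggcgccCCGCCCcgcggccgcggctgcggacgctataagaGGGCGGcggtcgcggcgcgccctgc
Wnt3a, chr11:59290752-59291001, minus strand: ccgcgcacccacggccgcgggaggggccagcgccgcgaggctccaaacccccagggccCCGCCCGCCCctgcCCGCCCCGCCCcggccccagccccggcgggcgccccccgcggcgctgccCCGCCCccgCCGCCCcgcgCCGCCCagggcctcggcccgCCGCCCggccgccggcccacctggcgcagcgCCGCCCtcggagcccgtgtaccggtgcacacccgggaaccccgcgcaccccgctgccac
Axin2, chr11:108920099-108920348, plus strand: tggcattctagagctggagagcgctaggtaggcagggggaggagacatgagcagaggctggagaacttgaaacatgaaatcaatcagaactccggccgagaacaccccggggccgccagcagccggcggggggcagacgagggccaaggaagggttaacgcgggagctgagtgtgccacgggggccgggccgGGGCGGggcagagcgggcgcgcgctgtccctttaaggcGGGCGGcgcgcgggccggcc

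The promoter of Wnt3a, a gene without reads, was as rich in CpG pairs as those of the ligands that were read. It held 41 CpG pairs and 9 GC boxes, against 48 and 5 for Wnt9a, 34 and 6 for Wnt7a and 24 and 2 for Axin2. RefSeq windows were at hand for 32 of the 48 genes (36 windows). Their median was 22 CpG pairs, against 6 over all 32851 windows. GC boxes were in 28 of the 36 windows (77.8%, against 32.7% of all windows). The set of all windows, of 27025 genes, was not limited to protein coding genes. A comparison with the promoters of coding genes alone was not made, so neither contrast is shown to be a trait of Wnt genes. Among the 20 windows of 19 detected genes the median was 24.5 CpG pairs, and among the 16 windows of 13 genes not called detected it was 15. Some genes entered with more than 1 window, among the latter Wnt5b (7, 4 and 35 CpG pairs) and Wnt11 (37 and 16). The medians are thus over windows and not over genes, and their difference was not tested. The TCF/LEF core letters CTTTGA, searched on both strands, were in 5 of the 36 windows (13.9%, against 13.8% of all), those of Dkk1, Frzb, Fzd1, Wnt11 and Wnt5b. The variant CTTTGT was also in 5 (13.9%, against 16.5%), those of Dkk1, Dkk2, Fzd1, Fzd7 and Wnt8b. Neither was in the Axin2 window. These are matches of letters and not binding sites, and a window without a match says nothing of sites elsewhere.

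Of the 48 genes, 31 were detected, 64.6%, against 28.7% of all gene rows and 58.2% of protein coding genes. A further 15 lay below 1 CPM in every library, 2 of them, Wnt3a and Wnt8a, without any read, and Wnt1 and Wnt5b crossed the threshold in only some libraries. Together the 48 genes took 0.215% ± 0.000974 of all reads, of which Ctnnb1 and Apc alone made up 62.3%. Scaled for the length of their exons, 10 lay above the median of the detected protein coding genes: Ctnnb1, Apc, Axin1, Sfrp1, Wnt7b, Wnt7a, Dvl1, Dvl3, Fzd9 and Dkk3.

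**Figure D1:**
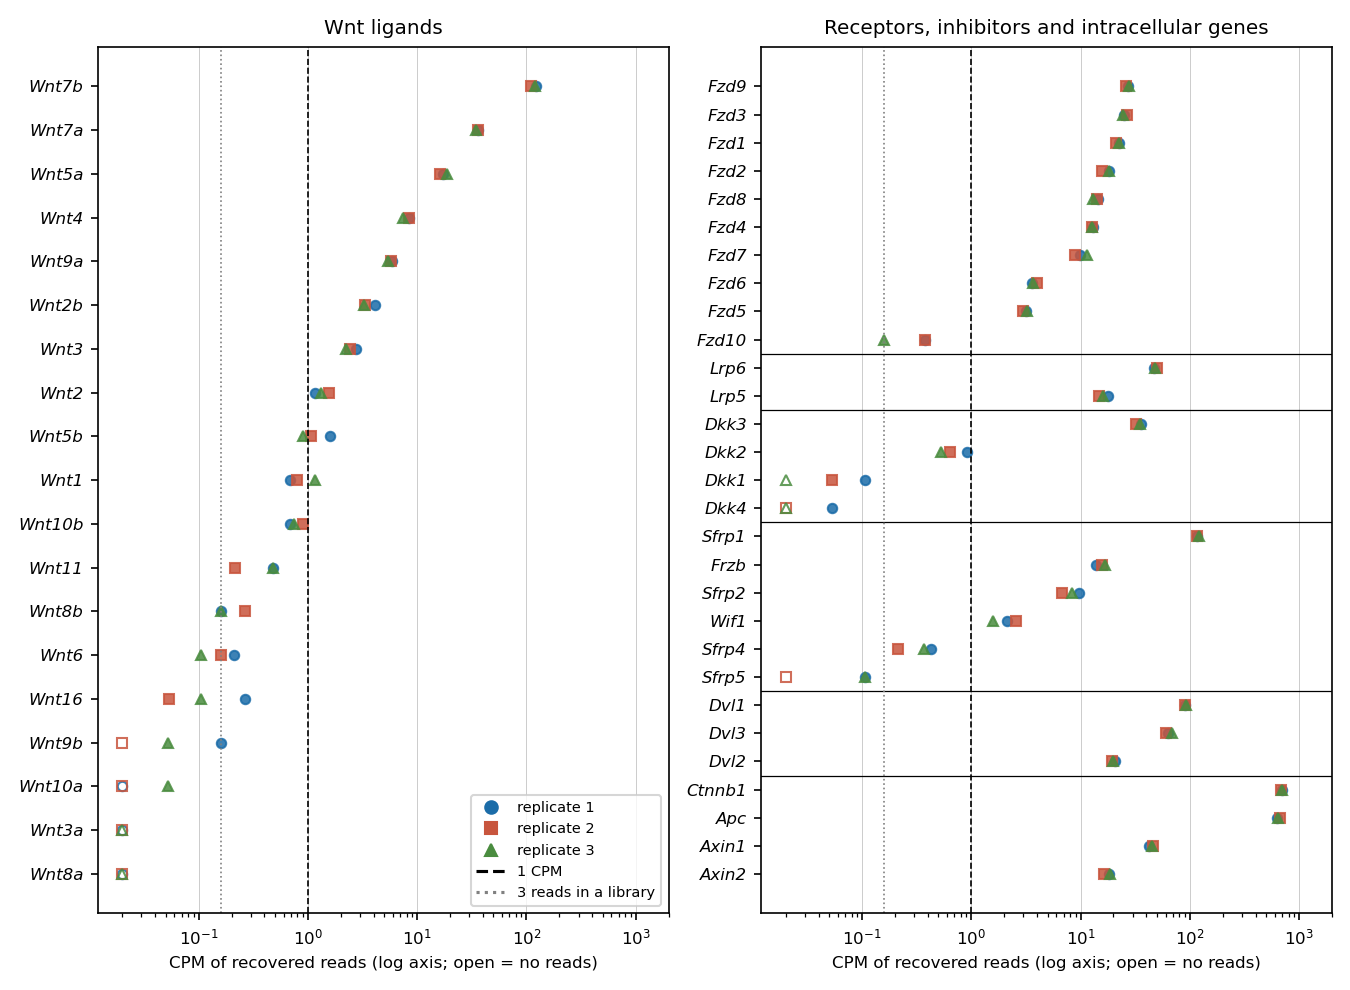
Level of each of the 48 genes in CPM of recovered reads (log axis), with 1 symbol per library; open symbols at the left edge mark libraries without reads, the dashed line marks 1 CPM and the dotted line 3 reads. Ligands run from Wnt7b at 117 CPM down to Wnt3a and Wnt8a without reads, and each receptor, inhibitor and intracellular family has 1 or more members above 10 CPM.

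Among the ligands, Wnt7b and Wnt7a stood far above the rest. These closely related Wnts are known in the forebrain for roles in dendrite growth and synapse assembly, and in vessel growth into the brain. Wnt7b (chromosome 15, 85535437 to 85582473) had 2276, 2078 and 2264 reads, 117 ± 5.42 CPM, lowest in replicate 2. Wnt7a (chromosome 6, 91363981 to 91411363) had 677, 675 and 657 reads, 35.7 ± 0.751 CPM, nearly level across the libraries. The 2 genes made up 78.3% of all ligand reads. Of the exon bases of Wnt7b, 6.61% are shared with the antisense gene AU022754, which had 85 reads, and whether counting kept the strand was not given in the sources used here.

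Next came Wnt5a, Wnt4 and Wnt9a. Wnt5a, the best known ligand of the branches without beta-catenin, had 324, 301 and 357 reads (17.4 ± 1.40 CPM), highest in replicate 3. Wnt4 had 159, 158 and 140 reads (8.11 ± 0.605 CPM) and Wnt9a 111, 108 and 102 (5.70 ± 0.265 CPM), both lowest in replicate 3. Scaled to exon length the 3 genes were close, at 2.23 ± 0.180, 1.93 ± 0.144 and 1.71 ± 0.0795 CPM per kilobase. Wnt5a over Wnt4 differed by 0.16 ± 0.18 on the log2 scale, less than its spread. Wnt4 lay above Wnt9a by 0.14 ± 0.04. That SD is over 3 libraries, and counting alone gives a spread of 8.10% for Wnt4 and 9.67% for Wnt9a. No counting interval was taken for this gap, so Wnt4 and Wnt9a are not called separated.

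Weaker ligands were Wnt2b at 3.57 ± 0.509, Wnt3 at 2.47 ± 0.277 and Wnt2 at 1.35 ± 0.192 CPM, with 42 to 78 reads per library for the first 2 and 22 to 29 for Wnt2. Wnt5b had 30, 20 and 17 reads and fell under 1 CPM in replicate 3. Wnt1, the classic signal of the midbrain boundary, had 13, 15 and 22 reads and passed 1 CPM in replicate 3 only. Per kilobase, with 0.5 added to each level, the gaps between neighbours in the order Wnt2b, Wnt3, Wnt2, Wnt5b, Wnt1, Wnt10b were 0.05 to 0.25 log2 units, each within 2 SD. The levels themselves ran from 0.849 for Wnt2b to 0.230 for Wnt10b. The added 0.5 is thus of their size and shrinks these gaps, which do not show that the genes were nearly level. Genes further apart in that order did separate: Wnt2b at 0.989, 0.790 and 0.769 per kilobase and Wnt3 at 0.900, 0.783 and 0.723 did not overlap with Wnt10b at 0.204, 0.268 and 0.218.

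The remaining ligands were at or near the detection limit. Wnt10b had 44 reads over the 3 libraries, Wnt11 22, Wnt8b 11, Wnt6 9, Wnt16 8, Wnt9b 4 and Wnt10a 1. Wnt8b is known from the hippocampal primordium of the embryo, and its 11 reads correspond to 0.0974 to 0.349 CPM (95% exact Poisson interval on the reads of all libraries together, counting error only). Wnt3a, the signal of the cortical hem that the embryonic hippocampus needs, and Wnt8a had no reads, which over all 3 libraries allows up to 0.0532 CPM.

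Several Wnt genes lie beside each other, in 4 pairs. Wnt9a and Wnt3a lie 16175 bases apart on chromosome 11 and are read away from each other, as are Wnt3 and Wnt9b, 24328 bases apart on the same chromosome. Their reads summed to 321 and 0 for the first pair and to 139 and 4 for the second. Wnt1 and Wnt10b on chromosome 15, 11706 bases apart, had 50 and 44 reads, a gap per kilobase within 2 SD. Wnt6 and Wnt10a on chromosome 1, 6193 bases apart and read in the same direction, had 9 and 1.

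Frizzled receptors were expressed broadly, with 9 of 10 detected. Fzd9, a receptor gene known from hippocampus and within the region deleted in Williams syndrome, was highest with 506, 491 and 527 reads (27.04 ± 0.817 CPM; 11.8 ± 0.356 per kilobase). The libraries were close to each other. Fzd3, which guides axons together with the polarity gene Celsr3, had 469, 499 and 461 reads (25.4 ± 1.197 CPM), nearly the CPM of Fzd9. Its annotated exons sum to 12804 bases against 2293 for Fzd9, so that per kilobase it stood at only 1.98 ± 0.0935.

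Fzd1, Fzd2 and Fzd7 form 1 subfamily of similar receptors. Fzd1 had 418, 391 and 422 reads (21.8 ± 0.794 CPM), Fzd2 342, 292 and 345 (17.4 ± 1.51 CPM), and Fzd7 187, 166 and 215 (10.1 ± 1.25 CPM). Replicate 2 was lowest for all 3. Per kilobase Fzd1 and Fzd2 stood at 5.20 ± 0.189 and 4.74 ± 0.412, a gap of 0.12 ± 0.07 log2 units that was within 2 SD. Both lay above Fzd7, by 1.07 ± 0.11 and 0.95 ± 0.08. Reads per kilobase without the added 0.5 gave folds over Fzd7 of 2.34 (2.12 to 2.59) for Fzd1 and 2.13 (1.92 to 2.37) for Fzd2. These are 95% exact binomial intervals that cover counting error only.

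Fzd8 (13.9 ± 0.820 CPM), Fzd7 and Fzd3, and also Fzd4 (12.8 ± 0.117 CPM), the receptor of the vessel signal norrin, followed each other per kilobase with gaps between neighbours of 0.05 to 0.13 log2 units that were within 2 SD. The ends of that order did not overlap, with Fzd8 at 2.43, 2.37 and 2.17 per kilobase and Fzd4 at 1.92, 1.90 and 1.88. Below them came Fzd6 with 67, 74 and 69 reads and Fzd5 with 60, 55 and 61. Fzd5 shares 17.8% of its exon bases with Gm38058, a gene on the opposite strand that had no reads. Fzd10 had 7, 7 and 3 reads and was the receptor gene below 1 CPM in every library.

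Both LDL receptor-related coreceptors were detected. Lrp6 had 883, 939 and 911 reads (48.5 ± 1.64 CPM) and Lrp5 334, 278 and 300 (16.2 ± 1.48 CPM). Lrp6 was highest in replicate 2, where Lrp5 was lowest, so their ratio moved between 0.76 and 1.04 log2 units across the libraries. Per kilobase the mean ratio was 0.91 ± 0.14, and 1.56 without scaling for the 13672 and 9738 bases of annotated exon.

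Among the secreted inhibitors of the 48 genes, Sfrp1 and Dkk3 were highest per kilobase. Sfrp1 (chromosome 8, 23411502 to 23449632), a soluble protein with a Frizzled-like Wnt-binding domain that is made by neural progenitors, had 2202, 2156 and 2279 reads, 118 ± 2.68 CPM. Per kilobase it stood at 26.9 ± 0.613, against 24.0 ± 1.11 for Wnt7b. This order rests on the length used. Wnt7b has 4898 annotated exon bases but a longest transcript of 3400, whereas Sfrp1 has 4372 by either measure. With the longest transcript as the length, Wnt7b would be the higher. Its reads made up 81.8% of the reads of the 6 secreted Frizzled-related genes with Wif1. Frzb, which encodes Sfrp3 and is known as a brake on adult hippocampal neurogenesis, had 260, 292 and 319 reads (15.5 ± 1.53 CPM), highest in replicate 3. Sfrp2 had 180, 126 and 156 (8.20 ± 1.42 CPM), highest in replicate 1. It shares 16.1% of its exon bases with the antisense gene Gm26771, which had 11 reads. Per kilobase Frzb and Sfrp2 were not separated (0.30 ± 0.31).

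Wif1, a secreted protein that binds Wnts through a domain of its own, had 40, 48 and 30 reads (2.10 ± 0.491 CPM). Sfrp4 and Sfrp5 were below 1 CPM in every library, with 19 and 4 reads in all. Of the Dickkopf genes, whose founding members block Lrp5 and Lrp6, only Dkk3 was detected in all libraries, with 674, 599 and 666 reads (34.4 ± 2.05 CPM), lowest in replicate 2. Dkk3 is the divergent member of the family and is not known as a direct Lrp6 blocker. The Lrp6 antagonists Dkk2, Dkk1 and Dkk4 had 39, 3 and 1 reads over the 3 libraries. Per kilobase the reads of Dkk3 exceeded those of Dkk1 by a ratio of 467 (95% interval 160 to 2266, exact binomial, counting error only) and those of Dkk2 by 54.8 (40.0 to 77.4).

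All 3 Dishevelled genes, which pass the signal from Frizzled to the cytoplasm, were detected. Dvl1 had 1707, 1669 and 1751 reads (91.0 ± 1.70 CPM), Dvl3 1177, 1134 and 1296 (64.0 ± 4.13 CPM) and Dvl2 391, 365 and 374 (20.1 ± 0.677 CPM). The 3 ranges did not overlap, and replicate 2 was lowest for each gene. Per kilobase the order was Dvl1 at 18.2 ± 0.339, Dvl3 at 9.98 ± 0.644 and Dvl2 at 3.18 ± 0.108, with gaps of 0.84 ± 0.06 and 1.51 ± 0.10 log2 units. Dvl1 over Dvl3 was 0.24 with the longest transcript as the length and 0.51 without length scaling. Acadvl, on the opposite strand, overlaps 18.3% of the exon bases of Dvl2 and had 654 reads, so the value of Dvl2 is uncertain.

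The intracellular core held the 2 highest of the 48 genes per kilobase, Ctnnb1 and Apc. Ctnnb1 (chromosome 9, 120929216 to 120960507), which encodes beta-catenin, a protein of cell junctions as well as of Wnt signalling, had 13186, 12826 and 13068 reads, 694 ± 7.93 CPM. At 134 ± 1.53 per kilobase it lay at percentile 98.2 of the detected protein coding genes. Apc (chromosome 18, 34220924 to 34322552), the scaffold of the destruction complex that also binds microtubules in axons, had 11692, 12581 and 12150 reads, 646 ± 25.5 CPM. Per kilobase Ctnnb1 exceeded Apc by 1.72 ± 0.07 log2 units, but by only 0.10 without length scaling, since the annotated exons of Apc sum to 16116 bases and those of Ctnnb1 to 5192. Of the exon bases of Ctnnb1, 14.6% are shared with Ulk4 on the opposite strand, which had 253 reads.

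Axin1, the constitutive scaffold, had 795, 863 and 858 reads (44.7 ± 2.04 CPM), lowest in replicate 1. Axin2, its induced counterpart whose promoter is printed above, had 344, 304 and 354 (17.8 ± 1.32 CPM), lowest in replicate 2. Their ranges were far apart. Per kilobase Axin1 exceeded Axin2 by 1.71 ± 0.14 log2 units.

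**Figure D2:**
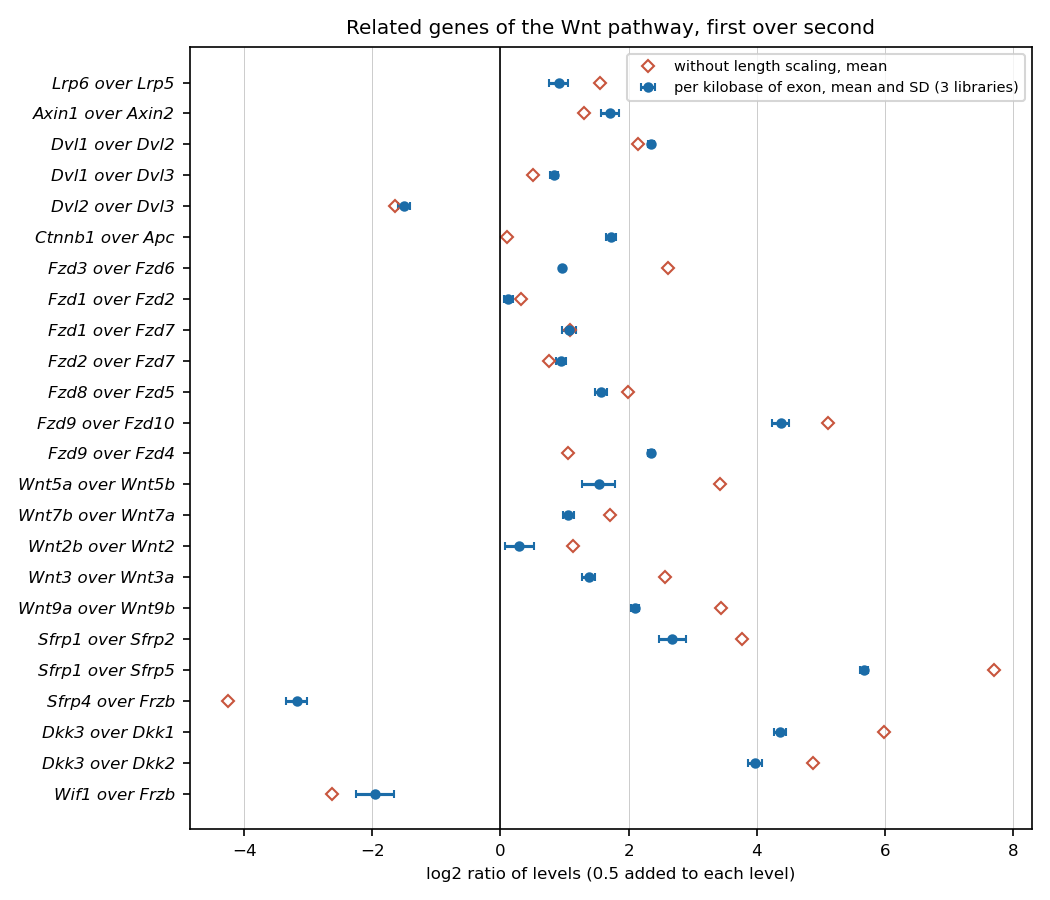
Log2 ratio of the levels of 24 pairs of related genes, first over second; filled points with bars are the mean and SD over 3 libraries per kilobase of exon, open diamonds the mean without length scaling, both with 0.5 added to each level. Ctnnb1 over Apc moves from 1.72 to 0.10 without length scaling. The added 0.5 pulls all ratios toward 0, most for those to genes with few or no reads (Wnt3a, Wnt9b, Sfrp5, Dkk1, Fzd10). It also does so for genes such as Wnt5b, Fzd5, Fzd7 and Lrp5.

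Related genes were compared within each library as a log2 ratio per kilobase, with 0.5 added to each level. Of 26 pairs, 2 had both genes below 1 CPM in every library (Wnt8b with Wnt8a and Wnt10a with Wnt10b) and got no ratio. In the other 24 pairs, the same gene was higher in 3 of 3 libraries. Wnt7b exceeded Wnt7a by 1.06 ± 0.08, Wnt5a exceeded Wnt5b by 1.53 ± 0.25, Fzd3 exceeded Fzd6 by 0.96 ± 0.02, Fzd8 exceeded Fzd5 by 1.57 ± 0.09, and Sfrp1 exceeded Sfrp2 by 2.68 ± 0.21. The size of several ratios rested on the length scaling and on the added 0.5. Without length scaling Wnt7b over Wnt7a was 1.70, Wnt5a over Wnt5b 3.43, Fzd3 over Fzd6 2.61, Fzd8 over Fzd5 1.99 and Sfrp1 over Sfrp2 3.78. Reads per kilobase without the added 0.5 gave a fold of 4.97 for Wnt5a over Wnt5b (95% exact binomial interval 3.88 to 6.47, counting error only) and of 5.15 (4.37 to 6.10) for Fzd8 over Fzd5, against 2.89 and 2.97 with it. The narrowest were Fzd1 over Fzd2 (0.12 ± 0.07) and Wnt2b over Wnt2 (0.30 ± 0.22). The two-sided exact sign-flip permutation p was 0.25 for each pair (0.25 after Benjamini-Hochberg adjustment over 24 pairs), the smallest that 3 libraries allow, so no ratio could pass 0.05.

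Where the weaker gene had few reads, ratios were also taken from reads per kilobase over all libraries without the added 0.5. Fzd9 exceeded Fzd10 by a ratio of 127 (79.1 to 219), Wnt9a exceeded Wnt9b by 109 (42.1 to 402) and Sfrp1 exceeded Sfrp5 by 721 (281 to 2647), with 95% exact binomial intervals that cover counting error only. For Wnt3 over Wnt3a the ratio was 41.6, taking 3 reads over the 3 libraries as the limit for Wnt3a. That value leaves out the counting error of the 139 reads of Wnt3, so it is not a 95% bound. In each of these pairs 1 gene carried nearly all reads, which follows from taking pairs whose weaker gene had few. Other pairs of the same families were closer, such as Fzd1 over Fzd2 at a ratio of 1.10 and Wnt2b over Wnt2 at 1.42.

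Of 71 other genes of the pathway, 58 were detected. This count and those of the lists below stand beside 58.2% of protein coding genes and 28.7% of all gene rows. No difference from these shares was tested. Of the genes that make and release Wnts, Porcn, which attaches the lipid, stood at 30.1 ± 1.97 CPM (10.0 per kilobase) and Wls, the carrier to the surface, at 30.7 ± 2.12 (3.49 per kilobase). Notum, which removes that lipid, and Trabd2b, a protease of Wnts, were below 1 CPM in every library. Among other receptors 7 of 8 were detected, led per kilobase by Ryk (60.6 ± 2.66 CPM), Ptk7 (31.6 ± 0.780) and Lrp4 (23.8 ± 0.828), whereas Musk, the kinase of the muscle synapse, had 3 reads.

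The R-spondin system, which raises Wnt receptor levels at the cell surface, was present with its ligands Rspo2 (13.3 ± 0.412 CPM) and Rspo3 (10.6 ± 0.907) and the receptor Lgr4 (32.3 ± 0.404). Rspo1, Rspo4 and Rnf43 were below 1 CPM in every library, so that 6 of 9 genes of that list were detected. Of 8 other secreted or surface inhibitors 5 were detected, led per kilobase by Draxin (45.5 ± 1.41 CPM), which also repels axons, Tpbg and Sostdc1. Sost and Kremen2 were below 1 CPM in every library and Cer1 had no reads.

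Genes of the destruction complex were all read, 12 of 12. Fbxw11 (232 ± 1.03 CPM), a subunit of the ligase that removes beta-catenin, and the kinases Gsk3b (383 ± 1.92 CPM) and Gsk3a (107 ± 2.92 CPM) led per kilobase, at 53.5, 38.9 and 36.9. This order too rests on the length used. Csnk1a1 (356 ± 9.74 CPM) stood at 33.9 over 10502 annotated exon bases, but its longest transcript has 4083. With the longest transcript as the length, Csnk1a1 would lead. Apc2, the neural relative of Apc, stood at 280 ± 7.73 CPM, and its 24.8 per kilobase compare with 40.1 for Apc. Of 13 planar cell polarity genes 12 were detected, led per kilobase by Daam1, Celsr2 and Prickle2, and Prickle3 had 1 read.

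Nuclear factors were uneven. Of 13 genes 11 were detected, led per kilobase by Cby1 (55.8 ± 1.91 CPM), Tle4 (109 ± 2.49) and Ctnnbip1 (52.8 ± 3.25). Ctnnbip1 was not separated from Pygo2 (65.4 ± 5.45 CPM), since their ranges per kilobase overlapped. Its place also rests on the length used. With the longest transcript as the length, Tle1 (101 ± 2.16 CPM) and Pygo2 would both lie above Ctnnbip1. Among the 4 TCF and LEF factors, Tcf7l1 had 225, 199 and 239 reads, Tcf7l2 105, 87 and 112, Tcf7 22, 15 and 18, and Lef1 1, 0 and 1. The 2 reads of Lef1 place it at 0.00430 to 0.128 CPM (95% exact Poisson interval, counting error only).

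Of the common targets of the canonical branch 6 of 11 were detected, near the share of 58.2% over protein coding genes. Myc, Ccnd1 and Nkd1 led per kilobase, at 46.3 ± 3.24, 26.2 ± 2.20 and 17.5 ± 1.64 CPM, while Lef1, Sp5, Notum and Rnf43 were below 1 CPM in every library. Myc and Ccnd1 are controlled by many other signals. Axin2, at 17.8 ± 1.32 CPM, stood at 3.23 ± 0.240 per kilobase, against 3.85 ± 0.361 for Nkd1, another feedback inhibitor, and the target Dkk1 had 3 reads. Lef1, Tcf7, Notum, Rnf43, Znrf3, Lgr5 and Apcdd1 belong to more than 1 of these lists.

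**Figure D3:**
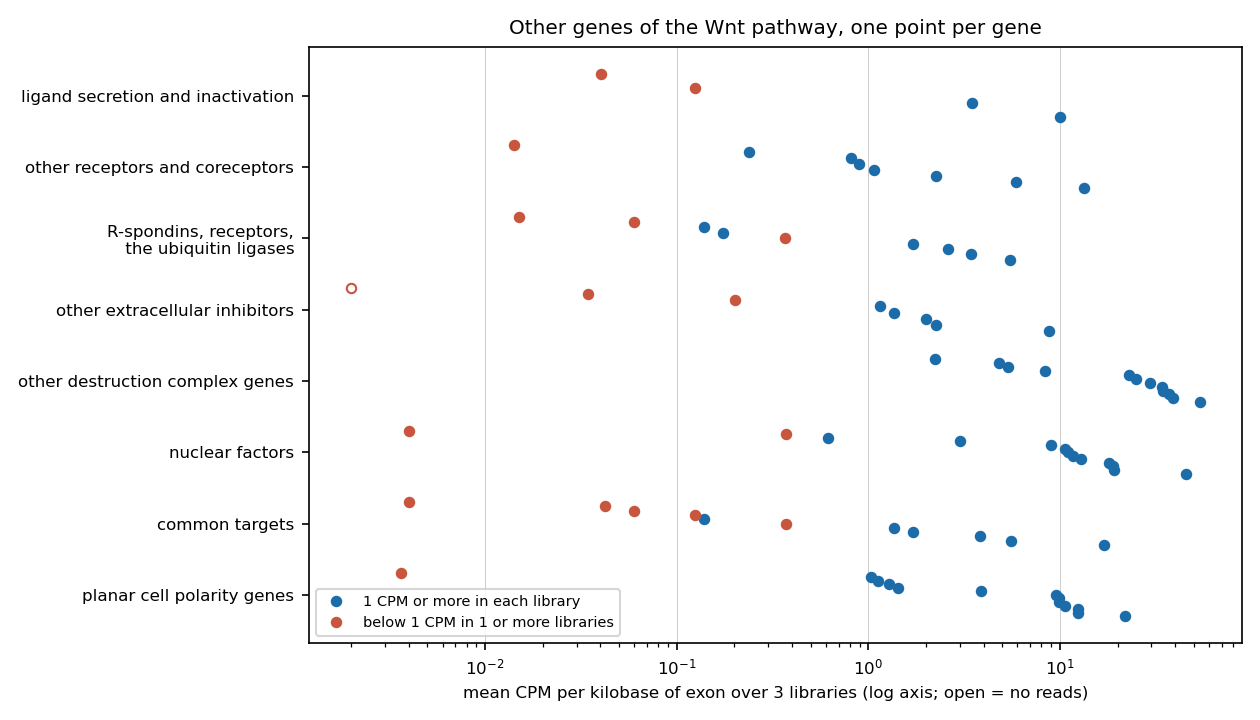
Mean CPM per kilobase of exon (log axis) of the other pathway genes, 1 point per gene and list; blue points were detected at 1 CPM in each library, red points were not, and the open point had no reads. All 12 destruction complex genes were detected, whereas the common targets range from Myc at 17.0 per kilobase to Lef1 with 2 reads.

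Differences between the libraries were the last question, since the 3 received the same medium. Of the 48 genes, 35 had a mean of 10 reads or more and were tested. After adjustment over all 15131 genes tested, only Apc, at 11692, 12581 and 12150 reads, varied by more than counting error (adjusted p = 1.90e-08, Pearson chi-square test of reads with Benjamini-Hochberg adjustment). It was lowest in replicate 1 and highest in replicate 2, a range of 1.09-fold after size factor scaling. That is 2.86% of the 35, against 8.62% of all genes tested. Without adjustment, Dvl3, Sfrp2, Wnt7b and Frzb also lay under 0.05. Without replicate 1 the only gene called was Dvl3, without replicate 2 there was none (3 unadjusted), and without replicate 3 there were 2, Apc and Sfrp2.

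Set against the dispersion trend of all genes in place of counting error alone, none of the 35 was called by the same chi-square test (1 at an unadjusted p under 0.05), against 0.317% of all genes, and Apc had an adjusted p of 0.955. None was called either with the trend behind the deposited values. The coefficient of variation of the 35 genes ran from 0.471% for Fzd4 to 30.1% for Wnt5b. It lay below the spread set by counting alone for 16 genes and above it for 19. Under counting error alone, an SD over 3 libraries falls below that spread more often than above it. An even split is thus not what counting alone would give, and the split was not tested. Replicate 2 was lowest for 16 of the 35 genes (45.7%, against 37.0% of all genes tested), with a median deviation of −0.03 log2 units, against −0.003 over all genes.

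**Figure D4:**
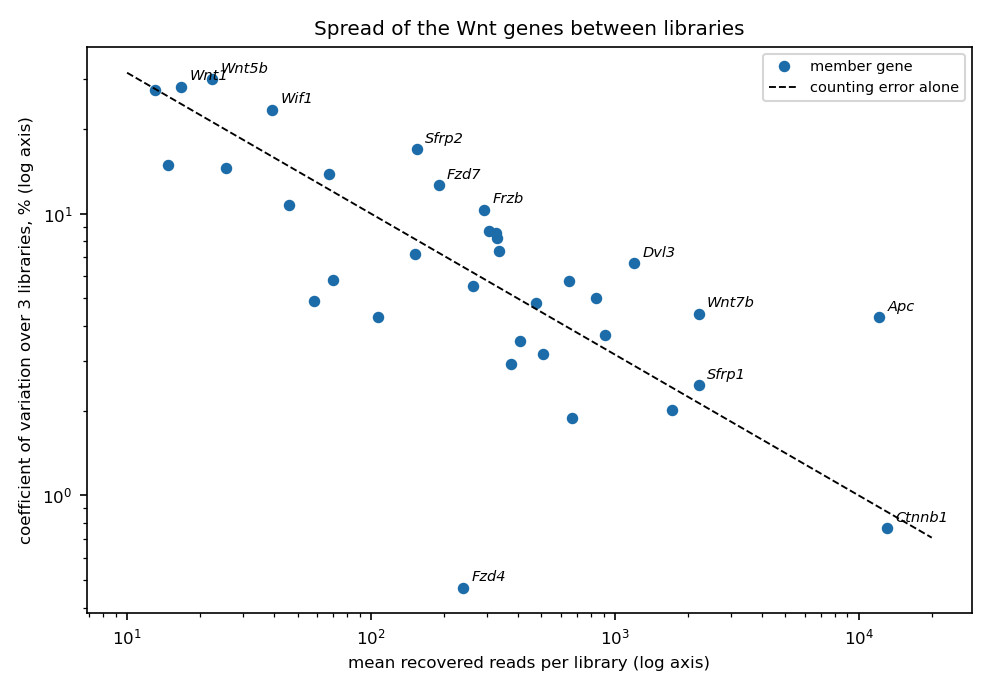
Coefficient of variation over the 3 libraries (%, log axis) against mean recovered reads per library (log axis) for the 35 genes tested; the dashed line is the spread that counting error alone gives. Most points lie near the line, Apc lies above it at 4.29% and Fzd4 far below it at 0.471%.

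The deposited log2 values by themselves hide most of this spread. For Wnt1 they were 4.05, 4.06 and 4.06 where the reads were 13, 15 and 22, and for Wnt5b 4.48, 4.48 and 4.48 where the reads were 30, 20 and 17. Over the 35 genes the median SD between libraries was 0.0087 in deposited values and 0.0876 in log2 CPM of reads. For genes with many reads the scales differed less, as for Apc at 13.53, 13.60 and 13.57.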

How the data were processed

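RNA of 3 libraries of 1 group was sequenced on the DNBSEQ platform, per the labels' protocols. The authors deposited 1 log2 value per gene and library, with no header line. FastQC, HISAT2, featureCounts and DESeq2 on GRCm38 are named in the submitters' processing notes; their versions, settings and the transform were not given in the sources used here. Of 47593 rows, 21897 were exactly 0 in all libraries.

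The numbers behave as a regularized log does. Solving a negative binomial fit with a ridge penalty backwards (6 parameters) returned reads: 99.9% of 67797 lay within 0.1 of a whole number (20% by chance), and 97.4% or more in each abundance range before it entered the fit. The 3097 genes with 1 read took 3 patterns of values and were read from those. Depth was 18683966 to 18885652 reads per library. Any 2 libraries differed beyond sampling noise (chi-square per gene 2.27 to 3.86, 1 for noise alone) and were counted separately.

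All 48 genes matched GENCODE M21 by symbol; length is the union of annotated exons. Pair ratios were tested with exact sign-flip permutation, variation between libraries with a Pearson chi-square test (2 degrees of freedom, median-of-ratios size factors, mean of 10 reads or more, dispersion trend over 20 bins), with Benjamini-Hochberg adjustment at 0.05, in Python 3.11.15, numpy 2.4.6 and scipy 1.17.1. The recovery of reads and the test of variation were tried on simulated data. The sign-flip test was not. Alternatives were the deposited values, other thresholds, lengths, added constants and size factors, and each library left out. P-values measure only the spread between these samples, which may be technical. Named are all genes of the rule and, of each other list, the 3 highest per kilobase and those below 1 CPM; others named were chosen after their values were seen. The genes, lists and pairs were chosen with earlier results of these data known.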

Additional observations from a re-analysis of the deposited data

How the results depend on the processing

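Of 259 alternative values, 244 were the same (for a count within 1.5 times, for a share within 1 SD, for a ratio the same direction) and 15 moved; none reversed. No ratio could have reversed when 1 library was left out, since each had the same sign in 3 of 3. Nor could another added constant reverse any, since an equal constant keeps the order of 2 levels. For ratios, only the deposited values and the other length scalings could have done so. The number of detected genes, 31, was 32 on the deposited values, 35 at 0.5 CPM, 25 at 5 CPM and 31 to 32 with 1 library left out. With mitochondrial genes out of the total, shares rose from 0.0196% to 0.0212% for Wnt ligands, from 0.0136% to 0.0147% for Frizzled receptors, from 0.00647% to 0.00701% for Lrp5 and Lrp6, from 0.00352% to 0.00381% for Dickkopf genes, from 0.0144% to 0.0156% for secreted Frizzled-related genes with Wif1, from 0.0175% to 0.0190% for Dishevelled genes, and from 0.140% to 0.152% for Axins, Ctnnb1 and Apc, which follows from the smaller total. The count of the pathway genes beyond counting error was 0 to 2 with 1 library left out (1 with all). Over all genes it was 334 to 1187 (1304 with all), and beyond the dispersion trend 7 to 28 (48 with all), or 19 with the trend behind the deposited values, an alternative added after seeing the data; the cause was not tested, beyond the smaller number of libraries in each. No paired analysis was possible because the libraries form 1 group. Depth limits the 13 genes with a mean under 10 reads, whose variation was not tested, and annotated exon length, which may differ from the transcripts expressed, limits every ratio between genes.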
